A study of Schizosaccharomyces pombe with 8 samples.

Results

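The 34 genes described here encode subunits of the 26S proteasome of the fission yeast Schizosaccharomyces pombe. They were taken by their symbols in the files' gene column, which had to begin with rpn, rpt, pre or pup followed by a digit, or to be mts2, mts4, pad1, pam1 or pts1. The rule matched 36 of 7092 listed genes, and 2 of these were antisense RNAs and not subunits. Of the 34 subunits, 13 belong to the core particle and 21 to the regulatory cap, with 11 in its base and 10 in its lid. The files list pad1 under rpn11, its name as a subunit. The alpha-type 1 subunit of the core is listed as scl1 and lies outside the rule.

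Messenger RNA was sequenced from mid-log cells grown in YES, a rich yeast extract medium, with 2 libraries in each of 4 groups. The groups were cells labelled ∆wee1 (h- wee1::ura4+ leu-32 ura4-D18) given 20 mM hydrogen peroxide (H2O2) for 15 min, untreated cells of the same label, wild-type cells (h- leu1-32 ura4-D18) given the same dose, and untreated wild-type cells. Wee1 is a kinase that delays entry into mitosis. Both labels list a leucine auxotrophy and ura4-D18, a deletion of ura4, and the ∆wee1 label adds a ura4+ cassette at wee1. The tables hold 1 pooled FPKM per group (fragments counted relative to transcript length and library size) and the authors' Cuffdiff comparisons of the groups, so neither the depth nor the value of each library is known. The design text calls the 2 libraries biological replicates.

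The label and the treatment were checked first. The transcript of wee1 stood at 15.5 and 16.1 FPKM in the pools labelled ∆wee1 (H2O2 and untreated), against 8.17 and 8.91 FPKM in the wild-type pools, and the authors' deposited table called it higher (q under 0.05) in both label comparisons. This goes against a deletion, though the tables do not show which part of the gene the reads came from. Every direction between strains below is therefore a direction between labels. By the listed genotypes the marker ura4 is present only under the ∆wee1 label, and its levels went the same way. It stood at 235 and 185 FPKM in the pools labelled ∆wee1 and at 0.0704 and 0.131 FPKM in the wild-type pools (H2O2 first in each pair). The peroxide-induced sulfiredoxin gene srx1 had log2 ratios for H2O2 over untreated of 3.99 under the ∆wee1 label and 4.07 in wild type. Nuclear coding genes held 93.5% and 86.8% of all FPKM in the pools labelled ∆wee1 (H2O2 and untreated), against 73.2% in wild-type H2O2 cells and 95.1% in untreated wild-type cells. The wild-type H2O2 pool thus stood apart, and its part in the results below was not tested.

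The proteasome degrades proteins that carry ubiquitin chains. Its core is a barrel of stacked alpha and beta rings whose inner chamber holds the peptidase sites. The cap binds the barrel's ends: the base unfolds the substrate with a ring of ATPases, the Rpt proteins, and the lid removes the ubiquitin chain. In the budding yeast Saccharomyces cerevisiae the factor Rpn4 drives the subunit genes together through a shared promoter element.

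All 34 subunits passed the level used to call a gene measured, a mean of at least 1 FPKM over the 4 groups, which 6281 genes passed. Every subunit stood above the median of the 4949 measured nuclear coding genes in each pool. The median subunit level was 268 FPKM in H2O2-treated and 255 FPKM in untreated cells labelled ∆wee1, against 244 FPKM in H2O2-treated and 203 FPKM in untreated wild-type cells. The median coding gene stood at 36.9, 38.3, 34.8 and 37.2 FPKM in the same pools. Together the subunits made up 0.747% and 0.754% of the coding FPKM in the pools labelled ∆wee1 and 0.514% and 0.537% in the wild-type pools (H2O2 first in each pair).

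The core subunit pre1 (beta-type 4) was the highest member by its mean over the pools, at 638 and 587 FPKM in the pools labelled ∆wee1 (H2O2 and untreated), against 554 and 417 FPKM in the wild-type pools. The small lid subunit rpn15 had the next highest mean, at 549 and 437 FPKM in the pools labelled ∆wee1, against 510 and 443 FPKM in wild type. In untreated wild-type cells rpn15 stood above pre1, and in the other 3 pools below it. The lowest member, rpn1301, encodes a base ubiquitin receptor and stood at 59.5 and 65.7 FPKM in the pools labelled ∆wee1, against 48.9 and 54.4 FPKM in wild type. The highest member was thus 10.7 times the lowest in H2O2-treated cells labelled ∆wee1 and 11.3 times in H2O2-treated wild-type cells. The lid gene rpn501 was next lowest, at 99.2 and 87.4 FPKM in the pools labelled ∆wee1, against 77.3 and 69.2 FPKM in wild type (H2O2 first). The split of reads between rpn501 and its near-identical copy rpn502 is uncertain, as described below. This limits every rank, ratio and call given here for either gene. The order of the 34 levels was much the same in every pool, with Spearman's rho between 0.956 and 0.977 over the 6 pairs of pools, described across genes and with no test. Core genes were higher than base genes: their medians were 324, 277, 262 and 227 FPKM, and the base medians 214, 218, 155 and 178 FPKM, in the order ∆wee1-labelled H2O2, ∆wee1-labelled untreated, wild-type H2O2 and wild-type untreated. The lid lay between them, at 262, 236, 240 and 188 FPKM. FPKM divides by transcript length, which allows a rough comparison of levels between genes. Of the 34 members 19 share their locus with another gene, and the effect of this on their levels was not tested.

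**Figure D1:**
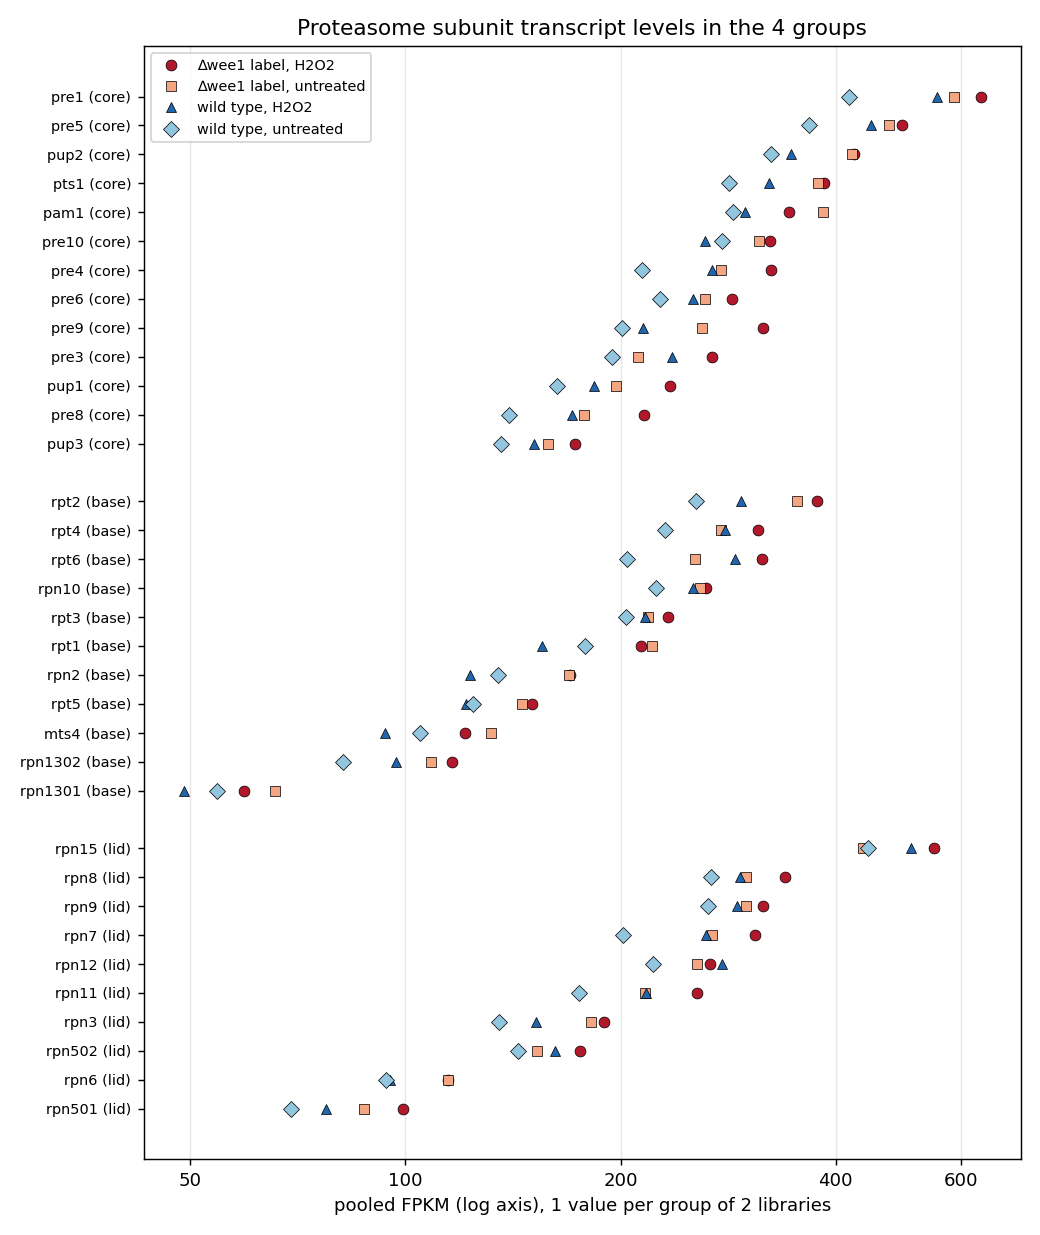
Pooled FPKM of each of the 34 subunits on a log axis, 1 marker per group of 2 libraries, ordered by mean level within core, base and lid. The highest marker belonged to H2O2-treated cells labelled ∆wee1 for 28 genes, and the lowest to untreated wild-type cells for 27 genes.

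The pools labelled ∆wee1 had higher subunit FPKM than the wild-type pools in most members, by a small margin. In 27 of 34 members both pools labelled ∆wee1 stood above both wild-type pools, which was so for 24.2% of the measured coding genes. The 7 exceptions were pre3, rpn11, rpn12, rpn15, rpn502, rpt4 and rpt6. In untreated cells 33 members lay above 0 on the log2 scale of FPKM + 1, with a median log2 ratio for the ∆wee1 label over wild type of 0.31, against 0.03 over the measured coding genes. Only rpn15 lay below 0, at -0.02 ± 0.26 (SE, n = 2 libraries per group). A called gene here is one with q under 0.05 in the authors' deposited table, and every SE is implied by the fold change and statistic in that table. Fewer expressing cells and less RNA per cell cannot be told apart in these bulk samples.

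Of the 6292 genes tested in untreated cells, 4.64% were called higher under the ∆wee1 label and 4.21% lower. Among the members 6 of 34 were called higher and none lower. In the core they were pre1, pam1 (beta-type 6) and pts1, the beta-type 5 subunit that carries the chymotrypsin-like site. The pre1 log2 ratio was 0.49 ± 0.26 (SE, n = 2), with q = 0.0475 in the authors' deposited table (Cuffdiff). The pam1 level was 384 FPKM in cells labelled ∆wee1 and 288 FPKM in wild type, a log2 ratio of 0.42 ± 0.21 with q = 0.0387 in the authors' deposited table. The pts1 level was 378 FPKM, against 284 FPKM in wild type, a log2 ratio of 0.41 ± 0.21 with q = 0.0405 in the authors' deposited table. In the base the ATPase gene rpt2 stood at 353 FPKM, against 255 FPKM in wild type, a log2 ratio of 0.47 ± 0.21 with q = 0.0194 in the authors' deposited table. The ubiquitin receptor gene rpn1302 stood at 109 FPKM, against 81.8 FPKM in wild type, with a log2 ratio of 0.40 ± 0.21 and q = 0.0467 in the authors' deposited table. In the lid only rpn7 was called, at 268 FPKM, against 202 FPKM in wild type. Its log2 ratio was 0.41 ± 0.21 with q = 0.0405 in the authors' deposited table. The 6 q-values of these calls thus lay between 0.0194 and 0.0475. Just outside the threshold, pre4, pup2 and pre5 had q of 0.0751, 0.0754 and 0.0806 in the authors' deposited table with log2 ratios of 0.37 each. The core median was 0.37, the base median 0.31 and the lid median 0.24.

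In H2O2-treated cells 33 of 34 members again lay above 0 for the ∆wee1 label over wild type, with a median log2 ratio of 0.25, against 0.05 over coding genes. The exception was the lid gene rpn12, at 267 FPKM in cells labelled ∆wee1 and 277 FPKM in wild type, a log2 ratio of -0.05 ± 0.27 (SE, n = 2). Called higher were 3 members, that is 8.82%, and none was called lower. Of the 6333 genes tested 6.51% were called higher and 7.01% lower, and of the measured nuclear coding genes 7.48% were called higher. The number of calls among the members is thus near the background share. The alpha-type 3 gene pre9 stood at 316 FPKM, against 215 FPKM in wild type, a log2 ratio of 0.55 ± 0.27 with q = 0.0257 in the authors' deposited table. The base scaffold gene rpn2 stood at 169.9 FPKM, against 123 FPKM in wild type, a log2 ratio of 0.46 ± 0.22 with q = 0.0208 in the authors' deposited table. The ATPase gene rpt1 stood at 214 FPKM, against 155 FPKM in wild type, a log2 ratio of 0.46 ± 0.21 with q = 0.0137 in the authors' deposited table. The other base scaffold gene, mts4 (rpn1), missed the threshold at a log2 ratio of 0.37 with q = 0.0763 in the authors' deposited table, and rpn501 at 0.35 with q = 0.0821 there. The number of members called in both label comparisons was 0. The 3 genes called here had log2 ratios of 0.31 to 0.37 in untreated cells. The 6 called there had log2 ratios of 0.20 to 0.36 in H2O2-treated cells. No gene called in one thus lay below 0 in the other, where 33 of 34 members lay above 0. The medians were 0.25 in the core, 0.28 in the base and 0.22 in the lid.

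**Figure D2:**
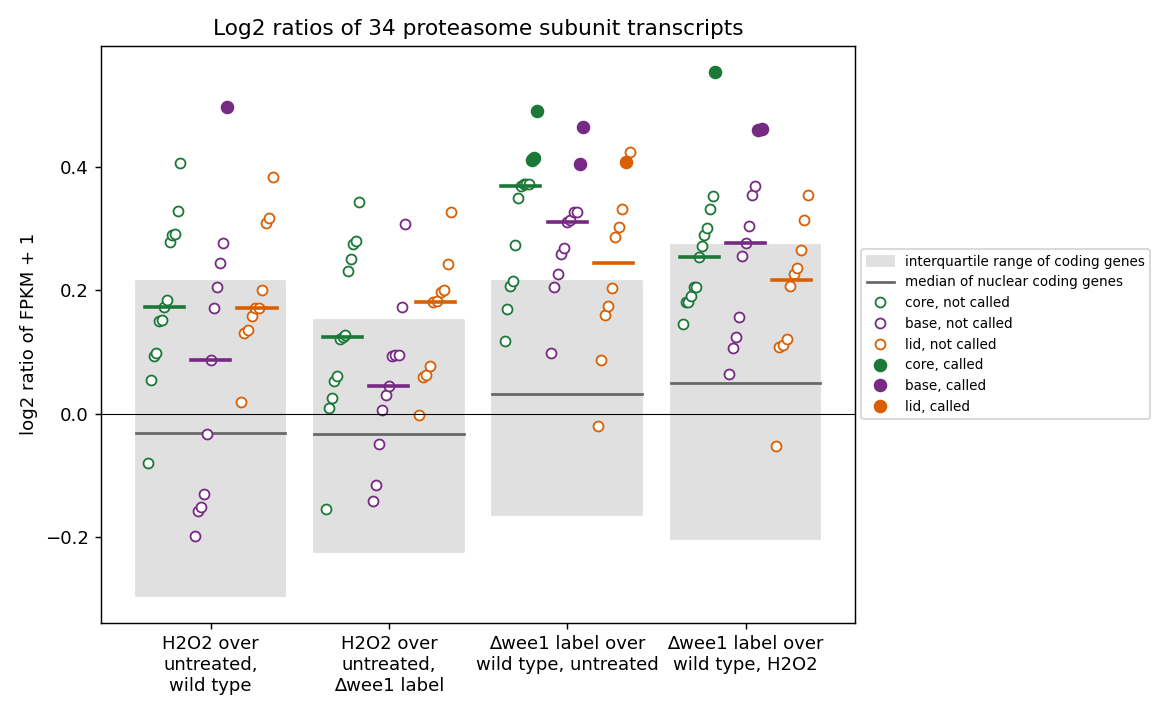
Log2 ratio of FPKM + 1 for each subunit in 4 comparisons, by core, base and lid, with filled points for genes at q under 0.05 in the authors' deposited table, coloured bars at the median of each subcomplex, and grey boxes spanning the interquartile range of the measured nuclear coding genes. In both label comparisons 33 of 34 points lie above 0, and 6 and 3 points are filled.

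The H2O2 comparisons gave smaller medians than the label comparisons, and the sign of those medians depended on the scaling. In wild-type cells 28 of 34 members lay above 0 for H2O2 over untreated, with a median log2 ratio of 0.17, against -0.03 over coding genes. Only the ATPase gene rpt6 was called higher, at 289 FPKM in H2O2-treated cells, against 205 FPKM in untreated cells. Its log2 ratio was 0.50 ± 0.21 (SE, n = 2) with q = 0.00698 in the authors' deposited table. No member was called lower. Of the 6277 genes tested 6.96% were called higher and 7.47% lower, so 1 call among 34 members is no more than the background share. The rpt6 log2 ratio was 0.15 under quantile normalization of the pools and 0.25 with the pools scaled to equal nuclear coding totals. The lid gene rpn7 came nearest to a further call, at 264 FPKM, against 202 FPKM in untreated cells, with a log2 ratio of 0.38 ± 0.21 and q = 0.0533 in the authors' deposited table. With equal nuclear coding totals the member median became -0.075, with -0.27 over coding genes, and under quantile normalization -0.13, with -0.15 over coding genes. The subunits' excess over the coding median was 0.20 as deposited, 0.19 with equal coding totals and 0.02 under quantile normalization. Set beside the 1532 coding genes within the subunits' own range of levels, whose median log2 ratio was 0.10, the excess was 0.07. Of these coding genes 65.7% lay above 0.

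Under the ∆wee1 label 29 of 34 members lay above 0 for H2O2 over untreated, with a median log2 ratio of 0.10, against -0.03 over coding genes, and none was called in either direction. Of the 6312 genes tested, 5.34% were called higher and 4.13% lower. The member with the largest ratio was the core gene pre3, the beta-type 1 subunit with the caspase-like site, at 268 FPKM in H2O2-treated cells and 211 FPKM in untreated cells, a log2 ratio of 0.34 ± 0.25. The rpn15 log2 ratio was 0.33 ± 0.26, and that of rpt6 was 0.31 ± 0.21 (SE, n = 2). The lowest ratios were those of pam1, -0.15 ± 0.21, and rpn1301, -0.14 ± 0.21. Both other scalings turned the member median round too, to -0.04 in each. The subunits' excess over the coding median was 0.13 as deposited, 0.12 with equal coding totals and 0.03 under quantile normalization. Beside the coding genes within the subunits' range of levels the excess was 0.047. The median log2 ratio of those genes was 0.049, and 60.2% of them lay above 0.

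The base stood lowest among the subcomplexes in both H2O2 comparisons, though no test separates them. In wild-type cells its median log2 ratio was 0.09, with 0.17 in the core and 0.17 in the lid, and under the ∆wee1 label it was 0.04, with 0.12 in the core and 0.18 in the lid. Within the base of wild-type cells the 6 ATPase genes ranged between -0.20 (rpt1) and 0.50 (rpt6), while 3 of the 5 other genes lay below 0: mts4 at -0.16 ± 0.21, rpn1301 at -0.15 ± 0.21 and rpn2 at -0.13 ± 0.21. All 7 beta-ring genes lay above 0 in wild type, with a median of 0.18, as did 5 of the 6 alpha-ring genes, with a median of 0.12. The remaining catalytic core gene, pup1 (beta-type 2, with the trypsin-like site), stood at 235 and 197 FPKM under the ∆wee1 label (H2O2 and untreated), against 184 and 163 FPKM in wild type, and its SE of 0.44 to 0.52 was the widest among the core genes. The deubiquitinase gene rpn11 of the lid stood at 256 and 216 FPKM under the ∆wee1 label, against 217 and 175 FPKM in wild type (H2O2 first), and was called in none of the 4 comparisons.

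**Figure D3:**
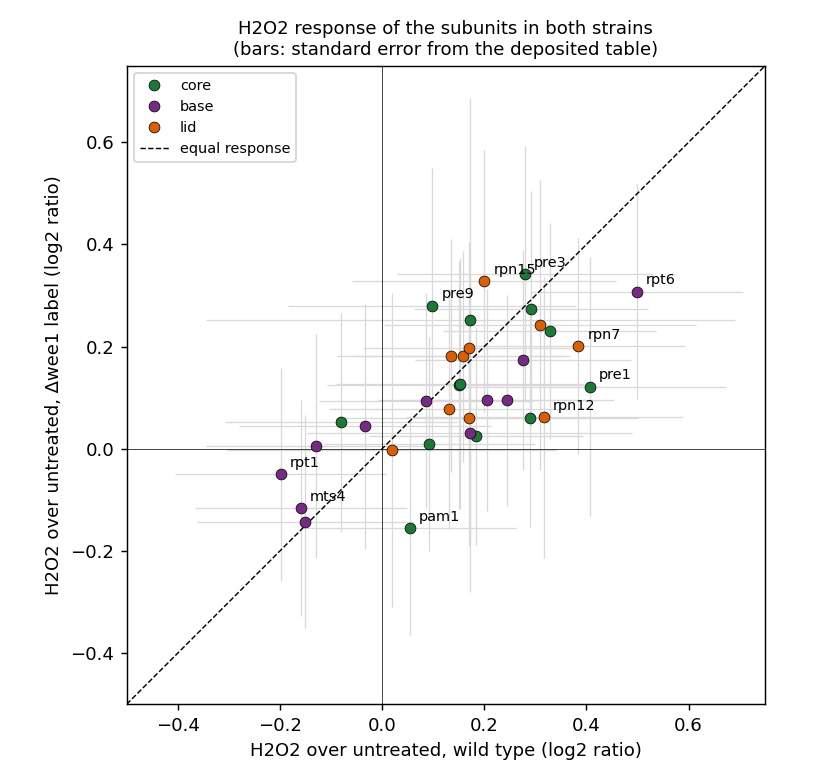
Log2 ratio for H2O2 over untreated in cells labelled ∆wee1 (vertical) against the same ratio in wild-type cells (horizontal) for the 34 subunits, with bars of 1 SE implied by the authors' deposited table and a dashed line of equal response. The 26 genes in the upper right lie above 0 in both strains, and every difference lies within its own 95% interval around the line.

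No difference between the strains in the subunits' response to H2O2 was detected. In 26 members the log2 ratio lay above 0 under both labels, and in mts4, rpn1301 and rpt1 it lay below 0 under both. The genes pre10, rpn2 and rpt5 lay below 0 in wild type only, and pam1 and rpn6 below 0 under the ∆wee1 label only. The difference of the responses, ∆wee1 label minus wild type, had a median of -0.02 and ranged between -0.29 in pre1 and 0.18 in pre9. None of the 34 differences passed a z test built from the group variances implied by the authors' deposited table, adjusted over 6108 genes by Benjamini-Hochberg. None reached an unadjusted p under 0.05 either, and the smallest p, that of pre1, was 0.437. The robust SD of z over all genes was 0.45, where a calibrated test gives 1, so the test is conservative. Of all genes 0.0327% passed as higher and 0.278% as lower. Across the 34 genes the H2O2 log2 ratios under the 2 labels correlated with Pearson's r = 0.68 and Spearman's rho = 0.66, against 0.76 and 0.78 across the measured coding genes, given as a description since genes are not independent. The 95% intervals of the differences reached 0.574 to 1.33 log2 units to each side, so modest differences in either direction are not excluded. These intervals rest on the same conservative errors and are not a limit of detection.

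In the values as deposited, the median subunit stood furthest from 0, among these comparisons, between H2O2-treated cells labelled ∆wee1 and untreated wild-type cells. This comparison shares each of its pools with others above and is given here only as deposited. With equal nuclear coding totals the label medians were 0.51 in untreated and 0.56 in H2O2-treated cells, so the ranking is not shown for that scaling. In the combined comparison all 34 members lay above 0, with a median log2 ratio of 0.36, against -0.03 over coding genes. Called higher in the authors' deposited table were 13 members, and none was called lower. Of the 6326 genes tested 9.26% were called higher and 7.07% lower. They were pre1, pre4, pre5, pre8, pre9 and pts1 in the core, rpt2, rpt4, rpt6 and rpn1302 in the base, and rpn3, rpn501 and rpn7 in the lid. The largest log2 ratio was that of pre9, 0.65 ± 0.28 (SE, n = 2) with q = 0.00793 in the authors' deposited table, and the smallest that of rpn1301, 0.13 ± 0.21.

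Fission yeast has paired genes for the lid subunit Rpn5 and for the ubiquitin receptor Rpn13. The coding sequences of rpn501 (chrI:1266269-1267780, plus strand) and rpn502 (chrI:4909367-4910875, minus strand) are 1332 bases each in RefSeq (ASM294v3) and 99.8% identical, and their proteins are identical over 443 residues. They differ at 2 bases, T978C and T1131C, counted from 1 at the A of the start codon with the rpn501 base first. Within the coding sequence only reads that cover one of these bases can tell the copies apart. The 61 coding bases around each difference are shown for this reason, with the differing base in capitals.
rpn501, around base 978: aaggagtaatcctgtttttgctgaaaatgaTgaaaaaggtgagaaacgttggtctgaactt
rpn502, around base 978: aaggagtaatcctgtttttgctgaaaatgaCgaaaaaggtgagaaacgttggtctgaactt
rpn501, around base 1131: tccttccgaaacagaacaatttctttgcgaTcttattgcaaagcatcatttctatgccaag
rpn502, around base 1131: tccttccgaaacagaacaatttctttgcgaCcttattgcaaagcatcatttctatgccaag
Of the 50-base windows of the rpn501 coding sequence, 92.2% occur unchanged in rpn502, so the split of reads between these copies is uncertain. Their summed level was 274 and 240.2 FPKM under the ∆wee1 label (H2O2 and untreated), against 239.5 and 213 FPKM in wild type, of which rpn502 was given 63.9% and 63.6%, against 67.7% and 67.5%. The Rpn13 genes are far less alike, with 42.8% coding identity and no shared 50-base window. Their summed level was 176 and 174 FPKM under the ∆wee1 label, against 146 and 136 FPKM in wild type (H2O2 first). In wild-type cells rpn1302 had a log2 ratio for H2O2 over untreated of 0.24 and rpn1301 one of -0.15, neither of them called.

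The subunit genes are scattered over the genome, with 15 on chromosome I, 12 on II and 7 on III. The nearest neighbours, rpn1301 and rpn12 on chromosome II, have 5075 bases between them. The upstream sequences of 3 members that were called are shown because the proteasome genes of Saccharomyces cerevisiae share a promoter element. They are the 250 bases before each gene's annotated start, 5′ to 3′ on the gene's strand, from RefSeq ASM294v3, and for these genes no annotated exon of another gene lies within them. These 3 are in lower case throughout, since they hold none of the motifs searched.
rpt6, called higher with H2O2 in wild type (chrII:2122817-2123066, minus strand): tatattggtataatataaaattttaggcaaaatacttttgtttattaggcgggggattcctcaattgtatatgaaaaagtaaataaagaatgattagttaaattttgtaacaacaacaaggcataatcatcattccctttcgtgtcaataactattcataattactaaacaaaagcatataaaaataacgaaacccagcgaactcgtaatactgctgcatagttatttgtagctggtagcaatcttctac
pre9, called higher under the ∆wee1 label in H2O2-treated cells (chrI:425240-425489, minus strand): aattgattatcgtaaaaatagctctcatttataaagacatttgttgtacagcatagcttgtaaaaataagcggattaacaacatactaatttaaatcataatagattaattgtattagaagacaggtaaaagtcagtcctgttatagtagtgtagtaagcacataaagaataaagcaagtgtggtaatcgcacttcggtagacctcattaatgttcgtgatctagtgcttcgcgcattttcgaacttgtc
rpt1, called higher under the ∆wee1 label in H2O2-treated cells (chrII:4343381-4343630, minus strand): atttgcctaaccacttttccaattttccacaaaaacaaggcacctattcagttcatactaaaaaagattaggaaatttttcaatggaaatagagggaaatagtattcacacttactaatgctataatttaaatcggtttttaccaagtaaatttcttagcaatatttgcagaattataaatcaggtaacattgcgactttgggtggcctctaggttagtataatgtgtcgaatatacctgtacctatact
Each motif was searched on both strands of the 250 bases in the 34 members and in 5112 coding genes. GGTGGCAAA, the element that Rpn4 binds in Saccharomyces cerevisiae, was in none of the 34 windows and in 0.0782% of all. TTAGTCA, an element of the peroxide-responsive factor Pap1, was in 4 windows, that is 11.8%, against 3.89% of all, and none of the 4 is among the windows shown. They include those of pup1, pup2 and rpn6, none of them called in the 4 comparisons of label or treatment, and that of 1 called member. TGACGT, the core of the element bound by the stress factor Atf1, was in 1 window (rpn12), against 5.52% of all. GAANNTTC, an inverted pair of the units found in heat shock elements, was in 3 windows (pre1, pre6 and pre8), that is 8.82%, against 9.49% of all. CAGTCACA, the HomolD box, was in 1 window (pre10), against 2.62% of all. These are matches of letters in a window of fixed length, not sites. Unlike the windows shown, many of the 34 overlap an annotated exon of another gene, coding or non-coding. Those of rpn12, pre10, pup1, pup2, pre1 and pre6 are among them.

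Of the other genes of the ubiquitin pathway, 32 of the 54 symbols listed were found, and few were called. Some symbols were other names of subunits already described, such as let1 for rpt6 and dss1 for rpn15. A symbol not found is therefore not always a missing gene. With H2O2 in wild type 2 of 32 were called higher and none lower. The same 2 genes, ubi4 and ubx3, were called higher with H2O2 under the ∆wee1 label. Over all genes tested 6.96% were called higher in wild type and 5.34% under the ∆wee1 label, so these counts are near the background share. The polyubiquitin gene ubi4 stood at 255 and 171 FPKM in H2O2-treated and untreated cells labelled ∆wee1, against 210.0 and 153 FPKM in wild type. Its log2 ratio for H2O2 over untreated was 0.58 ± 0.22 under the ∆wee1 label and 0.45 ± 0.21 in wild type, with q of 0.00153 and 0.0251 in the authors' deposited table. The gene ubx3 encodes a UBX-domain protein, a family known as adaptors of the segregase Cdc48, and its log2 ratio was 0.50 ± 0.21 under the ∆wee1 label and 0.74 ± 0.21 in wild type. In untreated cells 2 of 32 were called higher under the ∆wee1 label, fub1 (a proteasome inhibitor PI31-like protein) and ubx3. Called lower were 2, ubi5 and the conjugating enzyme gene ubc15. In H2O2-treated cells fub1 was called higher and ubi5 lower. In the label comparisons 4.64% and 4.21% of all genes tested were called higher and lower in untreated cells, and 6.51% and 7.01% in H2O2-treated cells. The fub1 level was 60.9 and 39.5 FPKM under the ∆wee1 label (H2O2 and untreated), against 35.9 and 21.3 FPKM in wild type, with label log2 ratios of 0.75 ± 0.35 with H2O2 and 0.86 ± 0.38 without. The gene ubi5, a fusion of ubiquitin to a ribosomal protein, had label log2 ratios of -0.63 ± 0.28 with H2O2 and -0.60 ± 0.27 without. Over the 32 genes the median label log2 ratios were 0.12 with H2O2 and 0.14 without, below the 0.25 and 0.31 of the subunits. The 8 partner and assembly genes, however, had label medians of 0.31 with H2O2 and 0.26 without, close to those of the subunits. The 5 ubiquitin genes had -0.50 and -0.32, and the 12 activation and conjugation genes 0.05 and 0.11. For the 7 shuttle and segregase genes they were 0.16 and 0.20. The median H2O2 log2 ratios over the 32 genes were 0.18 under the ∆wee1 label and 0.21 in wild type, above the 0.10 and 0.17 of the subunits. The assembly factor gene ump1 stood at 259.8 and 229 FPKM under the ∆wee1 label, against 207 and 180.1 FPKM in wild type (H2O2 first), and was not called. The alpha-type 1 core gene scl1 stood at 539 and 491 FPKM under the ∆wee1 label, against 485 and 418 FPKM in wild type, and was not called either.

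**Figure D4:**
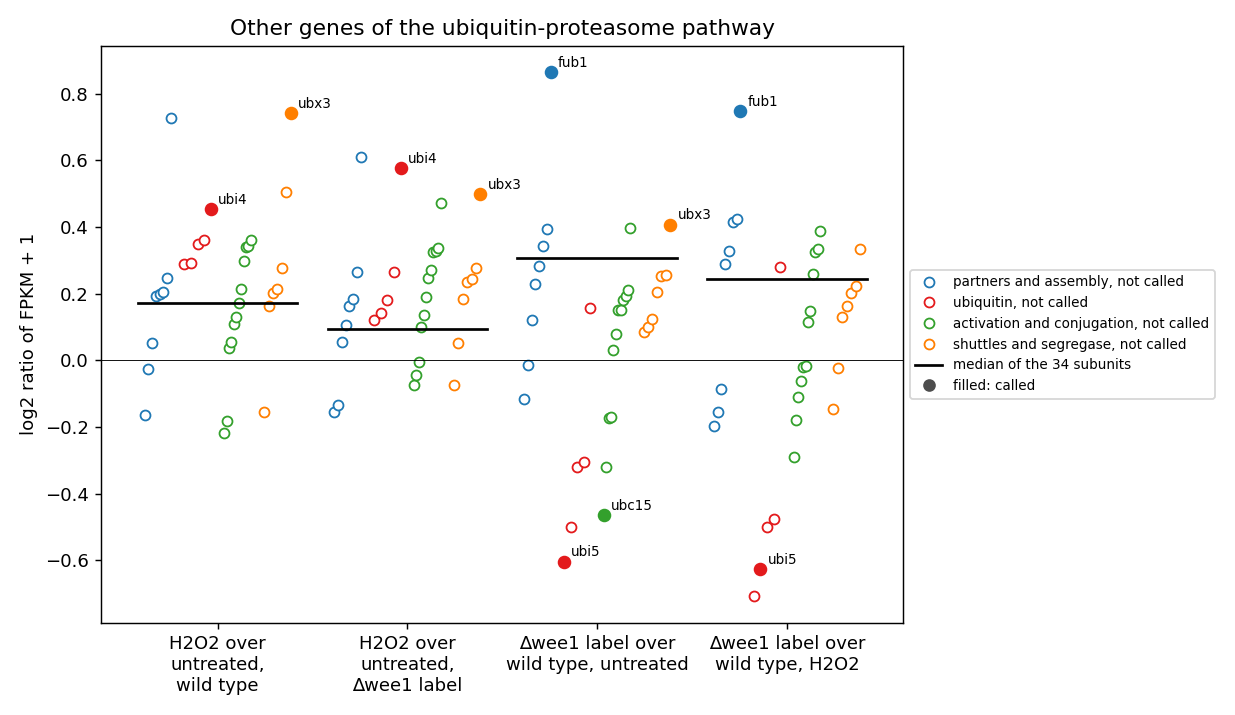
Log2 ratio of FPKM + 1 for 32 other genes of the ubiquitin pathway in 4 comparisons, coloured by role, with filled points for genes at q under 0.05 in the authors' deposited table and a black line at the median of the 34 subunits. Named points are the called genes, with fub1 highest and ubi5 lowest among the called genes in both label comparisons.

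The antisense RNAs that the rule also matched were low. The rpn10 antisense RNA stood at 8.91 and 3.90 FPKM under the ∆wee1 label (H2O2 and untreated), against 12.5 and 2.46 FPKM in wild type. The rpt5 antisense RNA stood at 4.98 and 3.40 FPKM under the ∆wee1 label, against 4.96 and 2.45 FPKM in wild type. Neither was called, with SEs of 0.93 to 2.26 log2 units. Both lie in loci that the files share with their sense gene. The library kit marks the strand, but no source used here says whether the counting used it, so reads of an antisense RNA and its sense gene may have been mixed. In all, 19 members lie in a locus that the files share with another gene and 15 lie alone in theirs. Of the 10 members called in the 4 comparisons of label or treatment, 8 lie alone. The other called members, pre1 and pre9, lie in loci of 2 and 4 genes. Among the other called pathway genes, fub1, ubi5 and ubx3 lie in loci of 4, 5 and 2 genes.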

How the data were processed

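The labels' protocols name TRIzol for the RNA and a TruSeq stranded kit for mRNA. Reads were processed with cutadapt, HISAT2 and Cuffdiff, per the submitters' processing notes, with no versions. No source used here gives the genome build. Of the loci in the files that hold a single gene, 99.8%, 99.9% and 99.3% (chromosomes I, II and III) share a start or an end with RefSeq ASM294v3, which supplied coordinates and sequences. The deposited values are pooled FPKM per group and, in the authors' comparison table, log2 fold changes, a test statistic (a score), p-values and q-values for 6 pairs of groups. The lowest p-value listed is 5e-05 in the deposited table, so several genes share the lowest q. Depth is unknown.

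Log2 ratios were computed from FPKM + 1, the pseudocount understating changes of low genes. They are descriptions without a test of their own; calls are the authors' q under 0.05. Group variances were solved from the deposited fold changes and statistics for 6111 genes. Read as normal, the deposited p-values would give standard errors smaller by a median factor of 1.42 than the statistics do, and the wider errors are printed. The z test was tested on simulated data, which does not show how well the deposited variances are calibrated. The members, the pathway list and the rule for named genes (called members, extremes, catalytic subunits, rpn11) were chosen with earlier results of these data known. From the pathway list tbp1 and mug113, which the files annotate as other functions, were dropped. Versions were Python 3.11.15, pandas 2.3.3, numpy 2.4.6, scipy 1.17.1 and Biopython 1.88. The upstream sequence of 1 further called member is not reported here.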

Additional observations from a re-analysis of the deposited data

How the results depend on the processing

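Under the alternatives 77 summary values moved by less than the spread or by less than 1.5 times, and 8 moved by more. For the H2O2 medians and their excess over coding genes the spread was the median SE of single subunits, 0.22 log2 units. It exceeds the medians themselves, 0.17 in wild type and 0.095 under the ∆wee1 label. The 77 thus include a wild-type excess falling from 0.20 to 0.02 under quantile normalization and a ∆wee1-label median turning negative. Their count is therefore no measure of stability. Of the values of single called genes 51 kept their direction and the authors' call, which rescaling does not recompute, and 9 lost the call, all at q under 0.01. The rpt6 ratio for H2O2 in wild type was 0.15 under quantile normalization and 0.25 with equal coding totals. Equal coding totals put the called label ratios at 0.60 to 0.69 in untreated and 0.77 to 0.87 in H2O2-treated cells. The median log2 ratio for H2O2 over untreated in wild type became -0.13 under quantile normalization and -0.075 with equal nuclear coding totals, where the ∆wee1-label median for H2O2 was -0.04 in both. The median difference of the responses became 0.06 and 0.09 under the same scalings. The H2O2-treated label median became 0.56 with equal coding totals. At q under 0.01 the members called higher under the ∆wee1 label numbered 0 in untreated and 0 in H2O2-treated cells. With a further bound of 2-fold they numbered 0 in both, and 0 for H2O2 in wild type. Other pseudocounts (0.1 and 5 FPKM), no filter on low values and members alone in their locus changed no direction. The set of coding genes within the subunits' level range was chosen after seeing the data. No paired analysis was possible because the files hold 1 pooled value per group; leaving out each replicate was not run for the same reason. Depth cannot be read from FPKM. With 2 libraries per group a typical SE was 0.22 log2 units, and changes of the size most subunits show may be missed. This SE is conservative, as described above, and is not a limit of detection.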
